A study of Homo sapiens with 8 samples.

Results

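The replication-dependent histone genes encode the linker histone H1 and the core histones H2A, H2B, H3 and H4 that package newly copied DNA. They were taken by gene symbol: every symbol beginning with H2AC, H2BC, H3C or H4C and a digit, together with H1-1 to H1-6, which gave 83 genes, of which 13 pseudogenes were left out. The remaining 70 of the 62649 genes in the count files comprised 6 H1, 17 H2A, 19 H2B, 13 H3 and 15 H4 genes. The rule goes by name and not by any count, and it was proposed with earlier results of these data known.

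Most of these genes sit in clusters and carry no intron, and cells make their mRNA mainly while DNA is being copied. The main form of the mRNA ends in a conserved stem-loop in place of a poly-A tail: the stem-loop binding protein SLBP holds the hairpin, the U7 small nuclear RNP and a CPSF73-containing complex cut the transcript just after it, and the mRNA is degraded when replication stops. Some of the genes also use a downstream poly-A signal, which yields polyadenylated copies that have been described in differentiated and tumour cells. Poly-A selection keeps such copies and removes most of the stem-loop form, so the levels below are those of polyadenylated (or incidentally captured) histone RNA and not of total histone mRNA.

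The RNA came from SW480 and SW620, established human colorectal adenocarcinoma cell lines, and both lines were the B8-mCherry derivatives, in which the immunoproteasome is made visible by a fluorescent fusion. Single-end 75-base reads from poly-A libraries were counted per gene in 4 groups of 2: SW480 without caffeine, SW480 with caffeine, SW620 without caffeine and SW620 with caffeine. SW620 cultures are described that received 30, 60, 100, 250 or 500 µM caffeine for 72 hours or were passaged for 28 days in 125 µM, but the dose and the time of the sequenced libraries are not stated in the sources used here. Biological replicates are named in the protocol without saying how they were separated, so the p-values measure the spread between these libraries. Cultures were in DMEM with fetal calf serum. In bulk RNA, fewer cells expressing a gene and less RNA per cell cannot be told apart.

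The 8 libraries held 15760259 to 23269315 assigned reads, and a gene without reads could still stand at up to 3 counts, which is 0.129 to 0.190 CPM (reads scaled to the library's total; counting error only). Of 10 colorectal epithelial markers 9 were tested and CDX1 was at 0, with a summed level of 4847 to 7086 CPM in SW480 and 10854 to 14539 CPM in SW620. The 7 leukocyte markers summed to 1.90 to 4.49 CPM, and the 8 fibroblast markers, with COL3A1 at 0, to 5.92 to 7.66 CPM in SW480 and 37.8 to 48.6 CPM in SW620. The 5 endothelial markers, 2 of which were tested and called higher with caffeine in SW620, summed to 9.57 to 9.67 CPM in the SW620 controls, 15.2 to 15.6 CPM in SW620 with caffeine and 1.35 to 2.22 CPM in SW480. Their part in the histone results was not tested. Mitochondrial genes took 1.63% of the reads of SW480 caffeine replicate 2, where the remaining libraries had 4.38% to 6.16%, and the part of this in the SW480 results was not tested beyond leaving that library out.

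The stem-loop is the feature that sets these mRNAs apart, and several of the genes with most reads have annotated models that run past it. A search of GENCODE 29 transcripts (GRCh38) used a stem of 6 bases beginning GGNNNT, a loop of 4 bases beginning TT and the exact reverse complement of the stem, on the transcript strand. Of the 66 members with a model there, 34 had one that reached past the stop codon, and 27 of these held the pattern. In 21 members the longest model went on for over 100 bases after the hairpin, and 21 had a poly-A signal (AATAAA or ATTAAA) in the last 40 bases of a model. Over all genes, the members included, 91 of 58676 (0.155%) held the pattern at any place in a transcript. For the members only hits after the stop codon were counted, so the 2 counts are not fully alike. The stem-loops of 5 members that were called with caffeine in SW620 are shown as examples, in transcript DNA letters, 5′ to 3′. H2AC8, H2AC13, H2BC8, H2BC15, H3C8 and H3C10 were also called there and have a model that holds the pattern. Capitals mark the stem and loop.
H2AC6: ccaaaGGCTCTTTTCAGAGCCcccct
H2BC4: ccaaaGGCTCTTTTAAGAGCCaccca
H2BC5: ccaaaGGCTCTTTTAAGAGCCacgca
H2BC21: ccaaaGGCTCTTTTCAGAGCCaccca
H4C8: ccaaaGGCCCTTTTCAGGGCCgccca
The 16 capital bases were the same in H2AC6 and H2BC21 (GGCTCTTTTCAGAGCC) and the same in H2BC4 and H2BC5 (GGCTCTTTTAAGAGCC). After the hairpin the longest model ran for 1128 bases in H2AC6, 1729 bases in H2BC21, 1655 bases in H4C8, 116 bases in H2BC4 and 39 bases in H2BC5. The H1-2 and H2BC12 models in this annotation stop at the coding end, so nothing can be said from them about their 3′ ends. The H2BC11 model reached past the stop codon and had a poly-A signal, and the pattern was not in it.

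Despite the poly-A selection, 59 of the 70 members had at least 1 read and 53 had a total of 10 or more over the 8 libraries. The 11 members at 0 in every library were 3 H2A, 2 H2B, 3 H3 and 3 H4 genes. Among them H3C4, H3C14, H3C15 and H2BC12L share 100% of their 75-base stretches with another gene, and H4C15 97.1%. A 0 in these genes therefore does not show that their RNA was absent. H2AC18 and H2AC19, also at 0, have no model in GENCODE 29, so their shared stretches were not measured. Their 0 cannot be read as absence either. Members with any read numbered 52 in the SW480 controls, 46 in SW480 with caffeine, 51 in the SW620 controls and 59 in SW620 with caffeine. The members together held 56689 reads. H1-2, a linker histone, took 40.3% of them, H2AC6 (an H2A gene) 16.2%, H2BC12 (an H2B gene) 11.6%, H2AC25 (an H2A gene outside the main cluster, on chromosome 1) 8.19% and H2BC21 (an H2B gene on chromosome 1) 4.97%. These 5 genes thus held 81.4%. The 21 members with a poly-A signal in GENCODE 29 had a median total of 133 reads and 43.5% of the members' reads, and the 13 whose model reaches past the stop codon without such a signal had a median of 83 reads and 3.01%. The 32 members with no model past the stop codon, H1-2 among them, could show no signal, and had a median of 16 reads and 53.3%. These totals were not scaled to model length, and a longer model can collect more reads. For example, H2BC21, with a signal, has 2194 exon bases and H2BC12, with no model past the stop codon, has 381.

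Summed over all 70 members, histone reads were higher with caffeine in both lines, and more so in SW620. The sum was 141 ± 23.9 CPM in the SW480 controls and 231 ± 28.1 CPM with caffeine (mean ± SD, n = 2 per group, CPM after TMM scaling), a ratio of 1.64. In SW620 it was 251 ± 14.9 CPM without and 909 ± 119 CPM with caffeine, a ratio of 3.62. Without H1-2 the ratios were 1.45 and 2.86. These sums describe the libraries and were given no test.

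By summed CPM the linker histones had the largest ratios in both lines, and in SW620 H3 and H4 had the smallest. The H1 sums, and the H3 sums in SW620, rest mostly on a single gene. H1-2 held 404 of the 407 CPM of H1 in SW620 with caffeine, and 96.7 of the 97.2 CPM in SW480 with caffeine. H3C6 held 10.1 of the 13.6 CPM of H3 in the SW620 controls. The ratios therefore do not rank the classes gene by gene. The H1 sum was 48.0 ± 13.9 and 97.2 ± 16.8 CPM in SW480 without and with caffeine, and 75.5 ± 7.53 and 407 ± 92.7 CPM in SW620, ratios of 2.02 and 5.40. The H2A sum was 31.8 ± 7.05 and 47.2 ± 4.79 CPM in SW480 and 85.0 ± 5.11 and 224 ± 9.12 CPM in SW620, ratios of 1.48 and 2.63. The H2B sum was 52.3 ± 2.58 and 75.6 ± 5.88 CPM in SW480 and 67.6 ± 1.53 and 237 ± 16.8 CPM in SW620, ratios of 1.45 and 3.51. In each of these classes, and in H3 and H4 as well, the libraries with caffeine lay above the controls of the same line. H3 stood at 3.98 ± 0.151 and 4.20 ± 0.0227 CPM in SW480 (ratio 1.06) and 13.6 ± 0.120 and 24.3 ± 1.25 CPM in SW620 (ratio 1.78). H4 stood at 4.78 ± 0.257 and 7.23 ± 0.704 CPM in SW480 (ratio 1.51) and 9.49 ± 0.611 and 16.6 ± 1.19 CPM in SW620 (ratio 1.75).

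**Figure D1:**
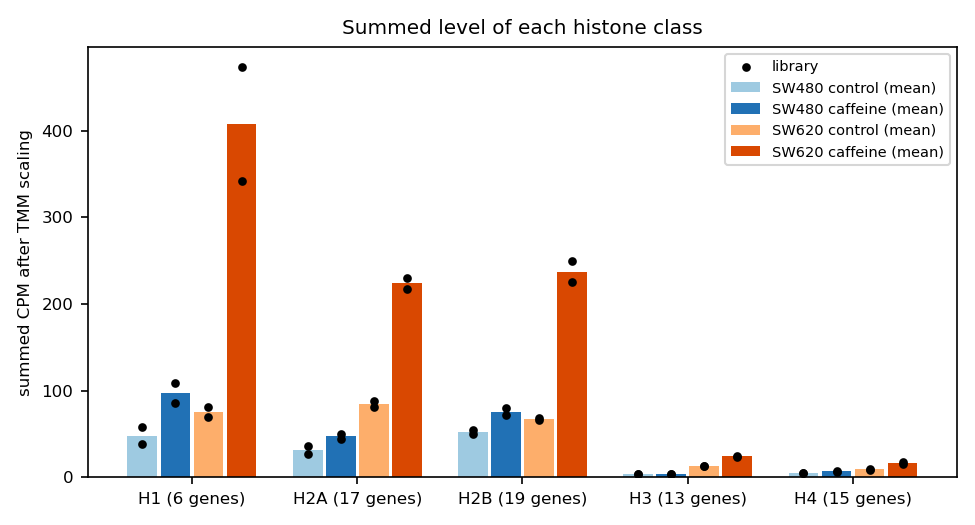
Summed level of each histone class (CPM after TMM scaling, linear axis from 0) in the 4 groups, with bars for the mean and 1 point per library. In SW620 with caffeine each class sum stands above that of the same class in every other group. The values are 407, 224 and 237 CPM for H1, H2A and H2B, and 24.3 and 16.6 CPM for H3 and H4.

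In SW620, caffeine raised 19 of the 33 members that passed the filter on low counts, and lowered none (adjusted p under 0.05 by edgeR's quasi-likelihood test with Benjamini-Hochberg adjustment over 17671 genes). Over all tested genes 8.10% were called higher and 6.25% lower, 14.4% in either direction. The other 37 members were not tested. Of the 33, 10 passed the filter only through the SW620 caffeine libraries and could hardly be tested unless they were high there: 7 of these were called. Of the 23 that passed it in at least 2 other libraries, 12 were called, with a median log2 fold change of 1.12, against -0.01 over all genes. By class these were 1 of 1 H1 gene, 2 of 5 H2A, 7 of 10 H2B, 1 of 2 H3 and 1 of 5 H4 genes. The median log2 fold changes of these classes among the 23 were 2.43, 0.49, 1.50, 0.85 and 0.64, in the same order. The 7 called among the other 10 were H1-3, H1-4, H2AC12, H2AC13, H2BC8, H3C2 and H3C8.

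**Figure D2:**
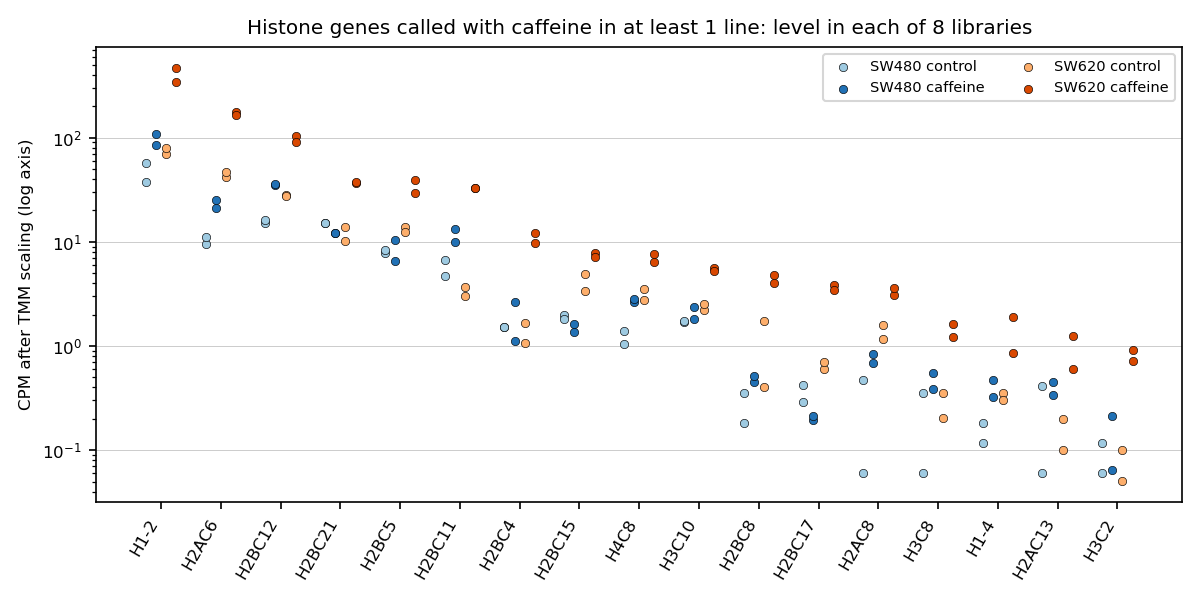
Level (CPM after TMM scaling, log axis) in each of the 8 libraries for 17 histone genes called with caffeine in at least 1 line and read in every library, ordered by their mean in SW620 with caffeine. The SW620 caffeine points lie above the SW620 control points for each gene shown, whereas the SW480 points overlap for several, such as H2BC4 and H2BC5.

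Among the linker histones, H1-2 (chr6:26055787-26056428, minus strand) measured 69.5 and 80.0 CPM in the SW620 controls and 469 and 339 CPM with caffeine. Both caffeine libraries were over the controls, though they differed from each other more than the controls did. The log2 fold change was 2.43 ± 0.19 (SE, adjusted p = 4.83e-07). H1-3, another linker histone, was at 0.152 and 0.200 CPM without and 1.25 and 0.805 CPM with caffeine (log2 2.48 ± 0.60, adjusted p = 0.0122). H1-4, which is of the same family, was at 0.354 and 0.301 CPM without and 1.90 and 0.856 CPM with caffeine (log2 2.03 ± 0.51, adjusted p = 0.0137). Both rest on few reads. The call of H1-3 was lost without SW620 caffeine replicate 1 (adjusted p = 0.0961), SW620 control replicate 1 (0.115) or SW620 control replicate 2 (0.0830). That of H1-4 was lost without the same libraries (0.190, with the log2 value at 1.37; 0.0862; and 0.120).

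Among the H2A genes, H2AC6 (older name HIST1H2AC, chr6:26124145-26139116, plus strand) measured 42.3 and 46.7 CPM in the SW620 controls and 174 and 165 CPM with caffeine, with no overlap (log2 1.93 ± 0.14, adjusted p = 1.80e-07). H2AC8 rose from 1.16 and 1.60 to 3.10 and 3.57 CPM (log2 1.27 ± 0.34, adjusted p = 0.0186), and H2AC13 from 0.101 and 0.200 to 1.25 and 0.604 CPM (log2 2.54 ± 0.69, adjusted p = 0.0214). Of the 75-base stretches of H2AC13, 60.1% also occur in another gene, most of them in H2AC14, so its reads cannot be assigned with certainty. H2AC12 had 2 reads in the SW620 controls and 26 with caffeine, a ratio of 14.1 (95% counting interval 3.53 to 122, adjusted p = 0.00822). The largest H2A contributor after H2AC6 did not pass: H2AC25 measured 35.9 and 38.3 CPM without and 48.9 and 44.8 CPM with caffeine, which do not overlap, at a log2 value of 0.33 ± 0.15 (adjusted p = 0.166). H2AC11 (log2 0.49 ± 0.50) and H2AC20 (-0.73 ± 0.68) were not called either. The H2AC8 call was lost without SW620 caffeine replicate 1 (adjusted p = 0.0510), SW620 caffeine replicate 2 (0.131), SW620 control replicate 1 (0.194) or SW620 control replicate 2 (0.0706). H2AC12 and H2AC13 were lost without SW620 caffeine replicate 1 (0.0650 and 0.177), SW620 control replicate 1 (0.0742 and 0.171) or SW620 control replicate 2 (0.0786 and 0.0825).

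Among the H2B genes, H2BC11 (older name HIST1H2BJ, chr6:27125897-27132750, minus strand) measured 2.99 and 3.66 CPM in the SW620 controls and 32.9 and 33.1 CPM with caffeine (log2 3.31 ± 0.20, adjusted p = 2.99e-08). H2BC4 (HIST1H2BC, chr6:26114873-26123926, minus strand) measured 1.06 and 1.65 CPM without and 12.2 and 9.66 CPM with caffeine (log2 3.00 ± 0.31, adjusted p = 7.88e-06). H2BC12 (HIST1H2BK, chr6:27146418-27146798, minus strand) measured 28.4 and 27.2 CPM without and 104 and 91.1 CPM with caffeine (log2 1.81 ± 0.13, adjusted p = 1.87e-07). In all 3 the groups were apart, and the lowest caffeine library of H2BC11 and H2BC4 lay several fold over the highest control. In H2BC12, 50.5% of the 75-base stretches also occur in another gene, so some of its reads may have been dropped or shared.

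Among the other H2B genes, H2BC21 measured 10.3 and 13.7 CPM without and 36.6 and 37.5 CPM with caffeine (log2 1.63 ± 0.15, adjusted p = 2.76e-06). H2BC5 measured 13.9 and 12.5 CPM without and 38.8 and 29.4 CPM with caffeine (log2 1.36 ± 0.19, adjusted p = 0.000145). H2BC17 measured 0.607 and 0.702 CPM without and 3.87 and 3.42 CPM with caffeine (log2 2.46 ± 0.32, adjusted p = 8.22e-05). These 3 showed no overlap and kept their call without any single library. H2BC8 controls lay far apart, at 1.72 and 0.401 CPM, against 4.82 and 3.98 CPM with caffeine (log2 2.04 ± 0.40, adjusted p = 0.00247). Its log2 value was 3.43 without SW620 control replicate 1 and 1.35 without SW620 control replicate 2, and stayed called. H2BC15 rose from 3.34 and 4.91 to 7.80 and 7.20 CPM (log2 0.86 ± 0.22, adjusted p = 0.0141). That call was lost without SW620 control replicate 1 (adjusted p = 0.244), SW620 caffeine replicate 1 (0.0852) or SW620 caffeine replicate 2 (0.0570). H2BC15 shares 393 exon bases with H2AC15 on the opposite strand, and the counting's strand setting is not given in the sources used here. The 4 tested H2B genes that were not called (H2BC6, H2BC9, H2BC18 and H2BC26) had log2 values of 0.86 to 1.70 and adjusted p values of 0.0750 to 0.201. H2BC6 passed the filter only through the SW620 caffeine libraries.

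**Figure D3:**
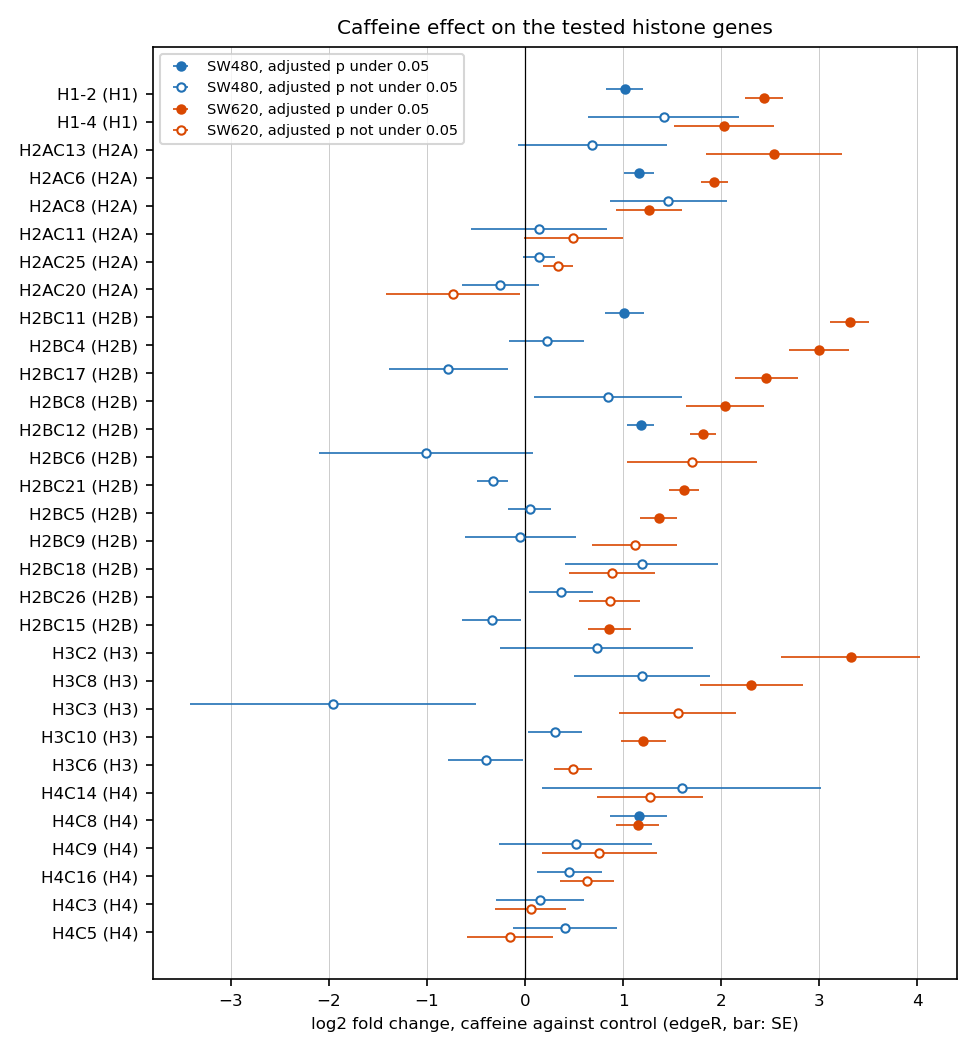
Log2 fold change with caffeine (point, with a bar of 1 SE to each side) for the 31 tested histone genes with reads in every group, SW480 in blue and SW620 in orange. Filled points have an adjusted p under 0.05. SW620 has 17 filled points in the plot, from 0.86 (H2BC15) to 3.32 (H3C2), and SW480 has 5, all near 1.

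Among the H3 genes, H3C10 measured 2.23 and 2.51 CPM in the SW620 controls and 5.66 and 5.28 CPM with caffeine (log2 1.20 ± 0.23, adjusted p = 0.00211), without overlap. H3C8 rose from 0.202 and 0.351 to 1.61 and 1.21 CPM (log2 2.31 ± 0.53, adjusted p = 0.00734). H3C2 had 3 reads in the controls and 30 with caffeine, a ratio of 10.8 (95% counting interval 3.37 to 55.5, adjusted p = 0.00485). The H3 gene with most reads, H3C6, was not called: it measured 10.2 and 10.1 CPM without and 12.9 and 15.6 CPM with caffeine (log2 0.49 ± 0.19, adjusted p = 0.0981). H3C3 was not called either (1.56 ± 0.59). H3C8 lost its call without SW620 control replicate 1 (adjusted p = 0.102) or SW620 caffeine replicate 1 (0.0558), and H3C2 without SW620 control replicate 1 (0.0729). Of the H4 genes, H4C8 measured 3.54 and 2.76 CPM in the SW620 controls and 7.56 and 6.44 CPM with caffeine, without overlap (log2 1.15 ± 0.22, adjusted p = 0.00221). Without SW620 control replicate 2 its adjusted p was 0.0661. The other 5 tested H4 genes had log2 values of -0.15 (H4C5) to 1.27 (H4C14), and H4C3, H4C5 and H4C9 overlapped between the groups.

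In SW480, caffeine raised 5 of the 33 tested members and lowered none, by the same test; over all genes 1.67% were called higher and 1.93% lower, 3.60% in either direction. The 5 were H1-2, H2AC6, H2BC11, H2BC12 and H4C8, and each was also called in SW620. The median log2 value was 0.41 over the 31 tested members with reads in both groups and 0.00 over all genes.

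The 5 genes changed by about the same amount in SW480. H2BC12 measured 15.1 and 16.2 CPM without and 34.8 and 36.1 CPM with caffeine (log2 1.18 ± 0.14, adjusted p = 0.000244). H2AC6 measured 9.50 and 11.03 CPM without and 25.3 and 20.9 CPM with caffeine (log2 1.16 ± 0.15, adjusted p = 0.000694). Both kept their call without any single library. H1-2 measured 37.7 and 57.6 CPM without and 109 and 84.7 CPM with caffeine (log2 1.02 ± 0.19, adjusted p = 0.00974). H2BC11 measured 4.66 and 6.71 CPM without and 13.3 and 9.96 CPM with caffeine (log2 1.01 ± 0.20, adjusted p = 0.0125). H4C8 measured 1.39 and 1.05 CPM without and 2.64 and 2.81 CPM with caffeine (log2 1.16 ± 0.29, adjusted p = 0.0361). None of the 5 overlapped between the groups. Leaving out SW480 control replicate 1 ended the call of H1-2 (adjusted p = 0.0576), H2BC11 (0.101) and H4C8 (0.0900). Leaving out SW480 caffeine replicate 2, the library with few mitochondrial reads, ended that of H1-2 (0.0521) and H4C8 (0.259). In addition, H4C8 missed the threshold without SW480 control replicate 2 (0.105), SW620 control replicate 1 (0.0516) or SW620 control replicate 2 (0.0515).

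Several genes that rose in SW620 were not called in SW480. H2BC21 measured 15.1 and 15.2 CPM in the SW480 controls and 12.04 and 12.14 CPM with caffeine (log2 -0.33 ± 0.16, adjusted p = 0.270), lower in both. H2BC5 measured 7.81 and 8.35 CPM without and 10.5 and 6.51 CPM with caffeine, which overlapped (log2 0.05 ± 0.22). H2BC4 measured 1.51 and 1.52 CPM without and 2.64 and 1.11 CPM with caffeine, which also overlapped (log2 0.22 ± 0.38).

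The difference between the lines was tested as the caffeine effect in SW620 minus that in SW480. It was called for 7 of the 33 members, all larger in SW620, against 4.24% of all genes called higher in SW620, 2.47% lower and 6.71% either way. The difference was 3.24 ± 0.71 on the log2 scale for H2BC17 (adjusted p = 0.0109), 2.78 ± 0.50 for H2BC4 (0.00332), 2.29 ± 0.29 for H2BC11 (0.000154) and 1.95 ± 0.22 for H2BC21 (5.13e-05). It was 1.42 ± 0.27 for H1-2 (0.00425), 1.32 ± 0.29 for H2BC5 (0.0109) and 0.77 ± 0.20 for H2AC6 (0.0298). So 5 of the 7 were H2B genes. The SW480 side of the H2BC17 difference rested on few reads: 7 and 5 in the controls and 3 and 5 with caffeine. In CPM these were 0.424 and 0.292 against 0.193 and 0.213, near the floor (log2 -0.78 ± 0.61, not called). H2BC12, at 0.63 ± 0.19, missed the threshold (adjusted p = 0.0519), and H4C8 had a difference of -0.01 ± 0.31. For H2BC4 the difference was 3.45 without SW480 caffeine replicate 1. The H2AC6 difference was lost without SW480 caffeine replicate 2 (adjusted p = 0.115), SW620 control replicate 1 (0.174), SW620 control replicate 2 (0.0935), SW620 caffeine replicate 1 (0.0860) or SW620 caffeine replicate 2 (0.0664). That of H2BC17 was lost without SW480 control replicate 1 (0.0778), and that of H2BC5 when SW620 control replicate 2 (0.0543) or, alternatively, SW480 caffeine replicate 2 (0.0617) was left out.

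Without caffeine, of the 33 tested members 14 were higher and 2 lower in the SW620 than in the SW480 controls, when 33.0% of all genes were called higher and 32.6% lower, 65.6% in either direction. Nothing is read from the members' count, and the values below describe single genes. These comparisons share the control libraries with the caffeine comparisons above. H3C6 differed most among the well-read members: 1.03 and 1.17 CPM in SW480 against 10.2 and 10.1 CPM in SW620 (log2 3.20 ± 0.27, adjusted p = 1.52e-08). H2AC6 stood at 10.3 ± 1.08 CPM in SW480 and 44.5 ± 3.11 CPM in SW620 (log2 2.11 ± 0.15, adjusted p = 1.89e-09). H2AC25 (log2 0.96 ± 0.16), H2BC12 (0.83 ± 0.14), H2BC5 (0.71 ± 0.21), H1-2 (0.65 ± 0.19), H2BC15 (1.11 ± 0.26) and H4C8 (1.36 ± 0.28) were also higher in SW620. So were the less-read H2AC8 (2.35 ± 0.53), H2BC8 (1.96 ± 0.65), H2BC18 (2.16 ± 0.69) and H4C3 (0.97 ± 0.41). H4C14 had 1 read in the SW480 controls and 15 in the SW620 controls (ratio 12.7, 95% counting interval 1.96 to 535), and 96.2% of its 75-base stretches occur in another gene, most in H4C15. H1-3 was at 0 in the SW480 controls and had 7 reads in the SW620 controls, at least 1.98-fold higher with the floor of 3 counts taken over the group.

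Lower in SW620 were H2AC20, at 0.968 and 1.17 CPM in the SW480 controls against 0.253 and 0.301 CPM (log2 -1.92 ± 0.48, adjusted p = 0.00205), and H2BC11 (-0.78 ± 0.23, adjusted p = 0.00651). With caffeine, H2BC11 stood at 33.0 ± 0.183 CPM in SW620 and 11.6 ± 2.33 CPM in SW480. Leaving out 1 library ended the call for H1-2 (SW480 control replicate 1, adjusted p = 0.0807; SW620 control replicate 2, 0.0516), H2BC11 (SW480 control replicate 2, 0.0934; SW620 control replicate 1, 0.0659) and H2BC18 (SW480 control replicate 2, 0.0540). It did so for H2BC8 without SW480 control replicate 1 (0.0755) or SW620 control replicate 1 (0.523, with the log2 value at 0.57), and for H4C14 without SW480 control replicate 1 (0.0763) or SW620 control replicate 2 (0.0890). H1-3 was lost without SW480 control replicate 1 (0.0782), SW480 control replicate 2 (0.0858) or SW620 control replicate 2 (0.0708), and H4C3 without the same libraries (0.0765, 0.161 and 0.273). The H2AC8 value was 1.55 without SW480 control replicate 1 and 4.35 without SW480 control replicate 2, called in both.

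Many H2A and H2B genes start back to back and share the stretch of promoter between them, so each pair offers 2 readouts of 1 intergenic region. Within 1000 bases, 11 such pairs were found in GENCODE 29, and H2BC17 also starts back to back with the H3 gene H3C12. H2BC4 and H2AC6 start 218 bases apart, and both rose in SW620. Their shared promoter is shown on the strand of H2AC6, followed by the promoters of H2BC11, with the largest fold among the well-read genes, and H1-2, with the most reads. Each runs from 250 bases before to 50 bases after the start (RefSeq, GRCh38.p14, strand of the gene), with capitals for 3 motifs on either strand. One is TATAAA, which the TATA-binding protein binds. The next is CCAAT, which NF-Y binds. The last is the octamer ATTTGCAT, which POU2F1, also called OCT1, binds.
H2AC6 promoter, chr6:26123922-26124221, plus strand: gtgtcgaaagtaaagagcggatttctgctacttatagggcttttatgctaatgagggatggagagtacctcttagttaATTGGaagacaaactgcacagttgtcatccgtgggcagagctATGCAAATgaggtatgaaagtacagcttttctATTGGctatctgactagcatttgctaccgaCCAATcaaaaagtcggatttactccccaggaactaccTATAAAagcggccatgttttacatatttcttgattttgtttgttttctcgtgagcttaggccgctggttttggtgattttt
H2BC11 promoter, chr6:27132746-27133045, minus strand: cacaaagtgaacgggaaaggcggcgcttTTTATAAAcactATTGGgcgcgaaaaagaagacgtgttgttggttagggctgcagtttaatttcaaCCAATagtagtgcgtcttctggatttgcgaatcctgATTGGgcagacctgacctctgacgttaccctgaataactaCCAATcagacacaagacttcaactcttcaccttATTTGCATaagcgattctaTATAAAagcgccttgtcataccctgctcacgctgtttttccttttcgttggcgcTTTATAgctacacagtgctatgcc
H1-2 promoter, chr6:26056421-26056720, minus strand: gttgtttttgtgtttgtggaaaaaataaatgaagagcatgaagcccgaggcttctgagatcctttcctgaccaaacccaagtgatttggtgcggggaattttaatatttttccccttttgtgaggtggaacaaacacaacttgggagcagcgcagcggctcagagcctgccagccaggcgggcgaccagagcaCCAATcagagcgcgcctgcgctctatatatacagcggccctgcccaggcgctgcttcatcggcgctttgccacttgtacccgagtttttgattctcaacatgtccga
The H2AC6 and H2BC11 windows hold all 3 motifs, and the H1-2 window holds only CCAAT. RefSeq promoters were found for 64 of the 70 members (68 entries). TATAAA occurred in 66.2% of these entries against 11.5% of all 35116 promoters, CCAAT in 85.3% against 34.6%, and the octamer in 39.7% against 1.77%, with no base in more than 1 motif in any member promoter. The octamer was in 15 of 20 H2B and 11 of 16 H2A entries, 1 of 13 H3 entries and none of the 6 H1 and 13 H4 entries. That H3 entry belongs to H3C4 and covers the same window as the H2AC7 promoter. H2BC5, H2BC12, H3C4 and H3C6 are entered more than once, and windows of paired H2A and H2B genes overlap, so the entries are not separate promoters. Of the 13 tested members with the octamer 8 were called higher in SW620, when 8.10% of all genes were. Of the 18 tested members whose promoter window lacks these letters 10 were. The called members that passed the filter only through the SW620 caffeine libraries, listed above, fall unevenly between these counts. Among them H2BC8 has the octamer, and all others with a promoter entry lack it. The counts therefore do not compare like with like, and whether the octamer goes with a call was not tested.

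Genes of a pair did not always move alike. In the H2BC8 and H2AC8 pair, with starts 282 bases apart, and in the H2BC12 and H2AC12 pair, 330 bases apart, both genes rose in SW620. However, H2BC8 and H2AC12 passed the filter only through the SW620 caffeine libraries and could hardly be tested unless they were high there. H2AC12 rested on 2 reads against 26, and the H2AC8 call was lost when any single SW620 library was left out. These pairs therefore say little about whether neighbours move alike. H2BC11 rose in SW620, but its neighbour H2AC11, 291 bases away, measured 0.658 and 0.601 CPM without and 0.417 and 1.31 CPM with caffeine, which overlapped. H2BC21 rose, whereas H2AC20, 322 bases away, measured 0.253 and 0.301 CPM without and 0.179 and 0.151 CPM with caffeine, that is 11 reads against 6. In the H2BC26 and H2AC25 pair, 233 bases apart, neither gene was called in SW620: H2BC26 measured 1.42 and 2.26 CPM without and 2.62 and 4.03 CPM with caffeine (log2 0.86 ± 0.31, adjusted p = 0.0750), and the H2AC25 values are given above. Whether the genes of a pair differ in their caffeine effect was not tested.

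**Figure D4:**
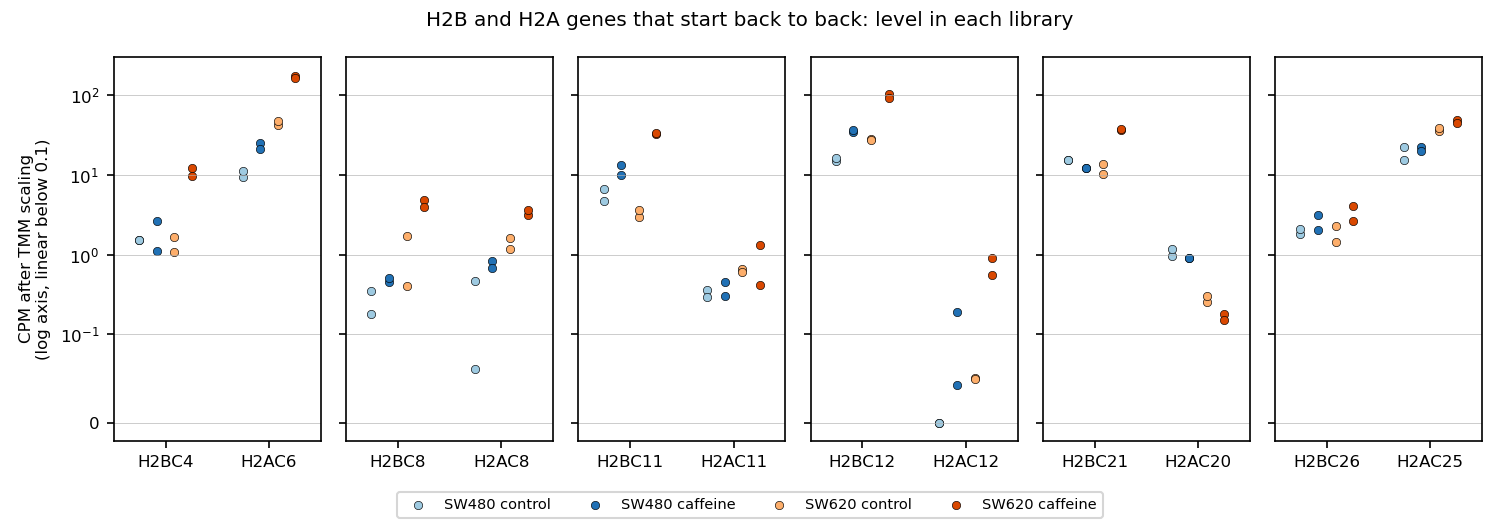
Level in each library (CPM after TMM scaling, log axis that is linear below 0.1) for 6 pairs of an H2B and an H2A gene that start back to back. With caffeine in SW620 both genes are above their controls in the H2BC4, H2BC8, H2BC12 and H2BC26 pairs, though neither gene of the H2BC26 pair was called. H2AC11 overlaps its controls and H2AC20 lies below them.

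The genes that transcribe, process and load histones were read from lists chosen with earlier results known, and their counts are to be set against the 3.60% of all genes called in SW480 and 14.4% in SW620. Of 20 genes of histone mRNA processing and decay, none were called in SW480 and 2 in SW620: TUT7, a uridylyltransferase that marks histone mRNA for decay, rose (log2 0.47 ± 0.15, adjusted p = 0.0478) and SRRT, the ARS2 protein that links capped transcripts to 3′ processing, fell (-0.46 ± 0.11, adjusted p = 0.0129). SLBP measured 90.7 and 99.8 CPM in the SW620 controls and 75.1 and 69.9 CPM with caffeine, without overlap, and missed the threshold (log2 -0.40, adjusted p = 0.0588). The list's median log2 value was -0.01 in SW480 and -0.06 in SW620. Of 15 genes of histone gene transcription, none were called in SW480, and in SW620 only E2F1, an activator of S-phase genes, which fell from 58.2 ± 1.29 to 35.2 ± 0.508 CPM (adjusted p = 0.00516). NPAT, the coactivator of histone gene clusters, was at 29.1 ± 1.44 and 30.1 ± 4.88 CPM.

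Of 18 histone chaperones none were called in SW480, and in SW620 1 rose and 3 fell. HJURP, which loads the centromeric histone CENPA, rose from 42.1 ± 1.14 to 89.0 ± 1.88 CPM (log2 1.08 ± 0.12, adjusted p = 1.93e-05). TONSL, which reads new H4, fell by 0.74 on the log2 scale, CHAF1A, the large subunit of chromatin assembly factor 1, by 0.52, and HIRA, which loads H3.3, by 0.49. Of 20 genes listed as replication-independent histones, 18 were matched and 11 tested. In SW480 1 of them rose, H2AX (log2 0.66 ± 0.14, adjusted p = 0.0177), and in SW620 2 rose, among them CENPA (0.72 ± 0.16, adjusted p = 0.00497). The list's median was 0.09 in SW480 and -0.04 in SW620.

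Lists of replication and proliferation genes were read in the same way. Of 32 S-phase and replication genes 4 rose in SW480 (TYMS, RRM2, GINS2 and LIG1) and none fell, with a median of 0.25; over all genes 1.67% were called higher there. In SW620 RRM2 (log2 0.52) and TK1 (0.65), both of nucleotide supply, rose and 6 fell, with a median of -0.19, when 8.10% of all genes were called higher and 6.25% lower. PCNA, the sliding clamp, fell from 325 ± 12.9 to 177 ± 12.5 CPM (log2 -0.88 ± 0.13, adjusted p = 0.000207), and MCM6, FEN1, GINS2, GINS3 and ORC6 fell by 0.53 to 0.64. Of 15 proliferation genes, which are mostly mitotic, 13 rose in SW620 and none fell, with a median of 0.57; BUB1 went from 46.6 ± 2.39 to 89.5 ± 5.72 CPM and CDC20 from 87.1 ± 3.80 to 169 ± 3.35 CPM. None of the 15 were called in SW480, where the median was 0.15. The difference between the lines was called for 5 of the 32 S-phase genes, all lower in SW620 (GINS2, PCNA, FEN1, MCM6 and TYMS), and for 2 of the 15 proliferation genes, both higher (BUB1 and AURKA). The part of these shifts in the histone values was not tested.

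**Figure D5:**
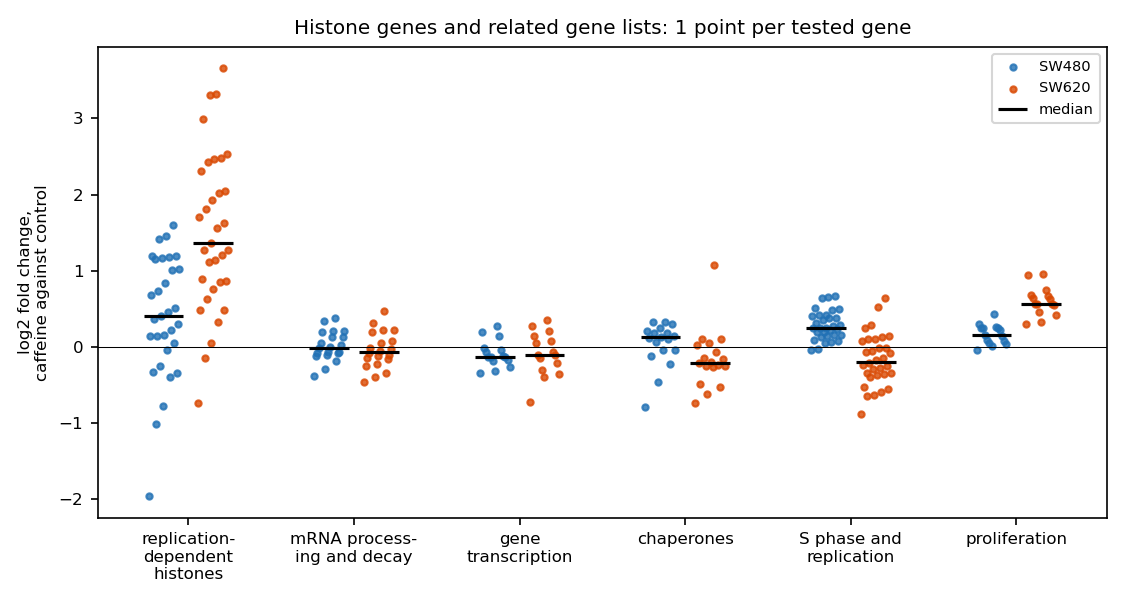
Log2 fold change with caffeine for every tested gene of the histone set (genes without reads in a compared group left out) and of 5 related lists, 1 point per gene, SW480 in blue and SW620 in orange, with a bar at the median. The histone medians are 0.41 and 1.36, and 10 of the 33 histone genes passed the filter only through the SW620 caffeine libraries; the other lists have medians between -0.21 and 0.57.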

How the data were processed

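The authors deposited 1 table of raw counts per library, that is whole reads per Ensembl gene for 62649 genes. Per the submitters' processing notes, the tools were Trim Galore, STAR (2.7.3a) and, for counting, featureCounts (2.0.5), with hg38 as the genome; the annotation release and the strand setting are not given in the sources used here. Between 13.3% and 17.5% of reads were left unassigned for low mapping quality, which removes reads of near-identical histone copies. A further 7.36% to 8.37% were left unassigned as ambiguous. The 12 assignment totals in each file were left out. Symbols matched 62625 genes.

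Counts were fitted with edgeR 4.0.16 (R 4.3.3; TMM scaling, filterByExpr, robust quasi-likelihood F test, Benjamini-Hochberg adjustment over 17671 genes, threshold 0.05), using 1 model of the 4 groups for the 8 libraries. The filter required about 0.539 CPM in 2 libraries. The script was tested on simulated data. The standard error is the log2 fold change divided by the square root of F. Named genes are all members called in any of the 4 contrasts, the member of each class with the highest mean, and up to 4 genes per list by adjusted p; other genes were named after their values were seen, and the result of 1 list member is not reported here. Members and lists were chosen with earlier results of these data known. Alternatives were DESeq2 size factors, no filter, the Wald test of DESeq2 1.42.0, the replicate block, separate fits and each library left out.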

Additional observations from a re-analysis of the deposited data

Results flagged for a closer look

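The caffeine effect differed between the lines for 7 histone genes by the interaction test of edgeR, in each case with the larger log2 value in SW620 than in SW480. The difference (SW620 minus SW480) was 1.42 for H1-2, 0.77 for H2AC6, 2.29 for H2BC11, 3.24 for H2BC17, 1.95 for H2BC21, 2.78 for H2BC4 and 1.32 for H2BC5. For H2BC17 and H2BC21 the fitted log2 value was below 0 in SW480 (-0.78 and -0.33, not called) and above 0 in SW620 (2.46 and 1.63, called). The SW480 value of H2BC17 rested on few reads.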

How the results depend on the processing

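For the histone genes, 571 alternative values of single genes kept their direction and side of the threshold, 58 lost the call and 3 changed sign in SW480, none of them called. With 1 library left out the SW480 value ranged from -0.45 (without caffeine replicate 1) to 0.80 for H2BC4 and from -0.31 (without caffeine replicate 1) to 0.38 for H2BC5, which was also just below 0 without control replicate 1. All 50 values of class sums moved by less than the spread. With 1 library left out, the number of histone genes called ranged from 2 to 5 in SW480, from 11 to 21 in SW620, from 5 to 8 for the difference and from 12 to 16 between the controls. In SW480, 2 were called when control replicate 1 was left out and 3 when caffeine replicate 2 was; 11 came without SW620 control replicate 1 and 12 without SW620 caffeine replicate 1. The Wald test of DESeq2 called 11 histone genes in SW620, of 18 with an adjusted p. Over all genes, the count in SW480 was 636, but 1073 with no filter and 50 to 1367 with 1 library left out. In SW620 it was 2537, but 4617 in the separate fit and 787 to 3225 with 1 library left out, and for the difference it was 1185 and 421 to 2156. The replicate numbers did not pair the libraries (correlations of same-numbered deviations from -0.19 to 0.03), and with the replicate block 5, 19, 7 and 16 histone genes were called in SW480, SW620, the difference and the controls, the same numbers as without it. A library left alone in its group was taken to vary like the others. Depth limits the genes with few reads, for which a call can rest on 1 library.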

Other observations

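The 37 histone genes that were too low to test, 26 of them with reads, together held 2.79 ± 0.181 CPM in the SW480 controls, 1.92 ± 0.0104 CPM in SW480 with caffeine, 2.54 ± 0.480 CPM in the SW620 controls and 6.77 ± 0.741 CPM in SW620 with caffeine (sums over the genes, mean ± SD, n = 2 per group). The SW620 caffeine libraries, with 105 and 145 reads, were above the other 6, with 30 to 57 reads. The H3 gene H3C12 had most reads among them, 52 over the 8 libraries, followed by the H2A gene H2AC16 with 50.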
